A study of Mus musculus with 6 samples.

Results

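Elastic fibres give skin, lung and arteries their recoil, and 7 genes for building them were followed here in mouse embryonic fibroblasts (MEFs): Eln, Fbn1, Fbn2, Ltbp2, Fbln5, Lox and Loxl1. They were taken by name from the 38483 genes in the files, and all 7 were found. Every one of them lies on the minus strand, and this was a condition of the choice, because each of the 19214 plus-strand genes is listed at 0 in all cultures. The list was chosen by the level of Eln, which was known to differ between the genotypes in these same counts. Its difference is therefore given as a description, and the values of the other 6 genes were also known when the list was drawn up. The question asked was whether Eln differed alone or together with the genes for its scaffold and its crosslinks.

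The cultures were 3 WT and 3 Nipbl+/- MEF cultures of the CD1 strain at passage 3, grown in DMEM with fetal bovine serum and given no other treatment. Nipbl+/- mice carry a heterozygous knockout of Nipbl, which encodes the loader of cohesin onto chromatin, in every cell and not only in fibroblasts, and they serve as a model of Cornelia de Lange syndrome. Per the methods, MEFs came from mid-gestation embryos of a pregnant mouse without their limbs, brain and internal organs, and WT MEFs came from littermates. Such cultures hold fibroblasts of many body sites, and which embryo gave which culture is not given in the sources used here.

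The core of an elastic fibre is elastin, a stretchable protein that cells secrete as soluble tropoelastin. Tropoelastin is deposited on microfibrils, which are built mainly of fibrillins, with the help of fibulins, and lysyl oxidases then join its lysines into permanent crosslinks. Fibroblasts and smooth muscle cells make most elastin, largely before and shortly after birth.

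Total counts lay between 20307454 and 25990783 per culture. Nipbl itself was lower in the Nipbl+/- cultures, at 100.7, 101.3 and 100.3 CPM (counts per 1e+06 reads, scaled by edgeR's TMM method) against 128.4, 144.8 and 134.7 CPM in WT. Among fibroblast markers, Fn1 lay between 14360 and 18190 CPM and Col5a2 between 8462 and 11630 CPM over the 6 cultures. Of 22 fibroblast markers, 8 lie on the minus strand, and none of these 8 was at 0. Their log2 fold changes were below 0 for 6 and above 0 for 2, with a median of -0.25. None passed edgeR's quasi-likelihood test, while 4 had an unadjusted p-value under 0.05, 2 were called by the exact test and 1 by DESeq2. Of all tested genes, 1.95% passed the quasi-likelihood test, 16.9% had such an unadjusted p-value, and the exact test and DESeq2 called 4.76% and 4.96%. Chosen after their values were seen, Col6a2 (-0.69) and Prrx1 (-0.30) were the markers called by the exact test, and Fap (0.64) differed in the other direction. Summed CPM of the list overlapped between genotypes, at 25450 to 31020 in WT and 26480 to 29760 in Nipbl+/- MEFs. Fn1 and Col5a2 made up most of this sum. The part of these markers in the results was not tested.

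Eln, the elastin gene (ENSMUSG00000029675, mm10 chromosome 5, 134703781 to 134747241), was at 36.4, 40.4 and 33.4 CPM in WT replicates 1, 2 and 3. In Nipbl+/- replicates 1, 2 and 3 it was at 159.7, 113.9 and 67.0 CPM. Each Nipbl+/- culture lay above each WT culture, and the Nipbl+/- cultures were far apart from each other. WT averaged 36.8 ± 3.51 CPM and Nipbl+/- MEFs averaged 113.6 ± 46.4 CPM (SD over 3 cultures each), a 3.09-fold difference. The SD was 9.56% of the mean in WT and 40.8% of it in Nipbl+/- MEFs. As a share of the WT mean, Eln reached 435%, 310% and 182% in Nipbl+/- replicates 1, 2 and 3. The log2 fold change was 1.63 (standard error 0.27, 95% interval 1.02 to 2.24). Without Nipbl+/- replicate 1 it was 1.30, and without Nipbl+/- replicate 3 it was 1.90 (lowest and highest of 6 fits that each left out a culture). Its adjusted p in edgeR was 0.0288 with all cultures, and it stayed under 0.05 in 2 of the 6 fits, those without WT replicate 2 (0.0376) and without Nipbl+/- replicate 3 (0.00513). It was 0.12 without WT replicate 1, 0.063 without WT replicate 3, 0.0842 without Nipbl+/- replicate 1 and 0.0924 without Nipbl+/- replicate 2. The counts behind these values were between 720 and 908 reads in WT and between 1404 and 3542 reads in Nipbl+/- cultures. Counting error is thus small beside the spread between cultures. Of the exonic bases of Eln, 3.3% are shared with the plus-strand gene Gm30003.

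**Figure D1:**
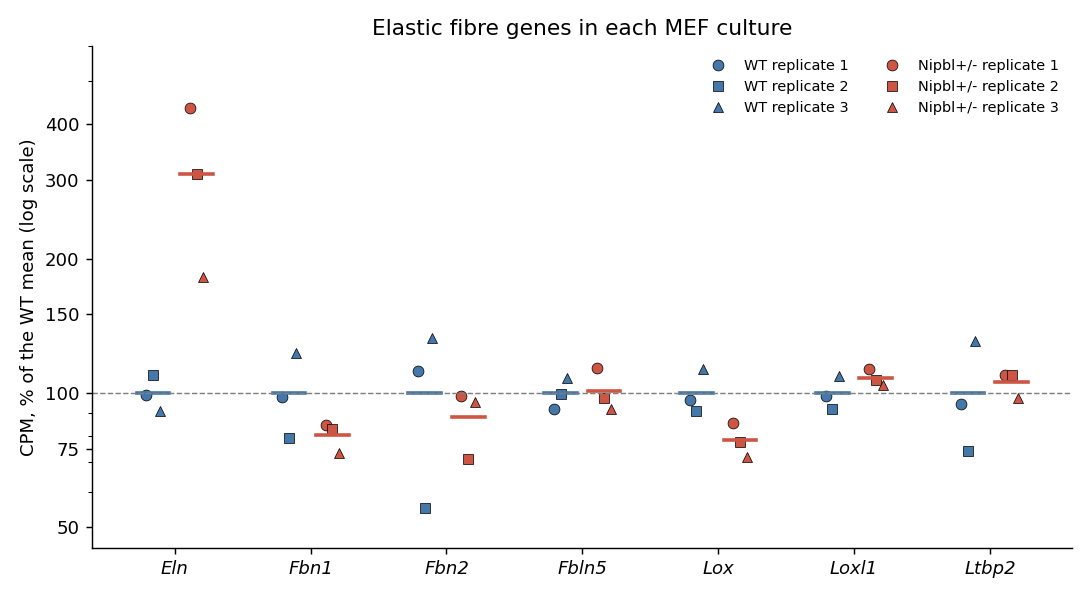
CPM of each elastic fibre gene in each culture, as a percent of the mean of the 3 WT cultures, on a log axis; points are cultures, short bars are means of 3 cultures, and the dashed line marks 100%. Eln stands at 182% to 435% in the Nipbl+/- cultures, while the other 6 genes stay between 55.2% and 133% in all cultures.

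None of the 3 scaffold genes passed edgeR's quasi-likelihood test, and the 95% interval of each held 0. Fbn1 encodes fibrillin-1, the main protein of microfibrils (ENSMUSG00000027204, chromosome 2, 125300594 to 125507993). It was at 2810, 2277 and 3525 CPM in WT and at 2434, 2383 and 2103 CPM in Nipbl+/- cultures. The genotypes overlapped, because WT replicate 2 was below Nipbl+/- replicates 1 and 2. For Fbn1 the log2 fold change was -0.32 (95% interval -0.63 to 0.002, edgeR QL-adjusted p = 0.298, where QL is the quasi-likelihood test and the adjustment is by Benjamini-Hochberg over all tested genes). Of the exonic bases of Fbn1, 20.1% are shared with the plus-strand gene Gm9913, and whether the counting used strand is not given in the sources used here.

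Fbn2 encodes fibrillin-2, the fibrillin of embryonic microfibrils (ENSMUSG00000024598, chromosome 18, 58008623 to 58209926). Its level was 235.3, 115.8 and 278.7 CPM in WT and 206.8, 149.2 and 200.6 CPM in Nipbl+/- MEFs. WT replicate 2 held the lowest value and WT replicate 3 the highest, so the WT cultures enclosed all Nipbl+/- cultures. On the log2 scale the difference was -0.18 (95% interval -0.82 to 0.46, edgeR QL-adjusted p = 0.795), and without WT replicate 3 it was 0.079. The interval is wide enough to hold a decrease or an increase of Fbn2 of moderate size.

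Ltbp2 encodes a latent TGF-β binding protein that attaches to fibrillin (ENSMUSG00000002020, chromosome 12, 84783212 to 84876532). It was at 1072, 839.7 and 1487 CPM in WT and at 1245, 1250 and 1102 CPM in Nipbl+/- cultures. Again the WT cultures enclosed the Nipbl+/- cultures, with WT replicate 2 lowest and WT replicate 3 highest. The log2 fold change was 0.082 (95% interval -0.32 to 0.48, edgeR QL-adjusted p = 0.856), and -0.094 without WT replicate 2. Of its exonic bases, 9.34% are shared with the plus-strand gene D030025P21Rik. The share with plus-strand genes was 0.976% for Fbn2 and 0.628% for Lox, and Fbln5 and Loxl1 shared none.

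Among the WT cultures the 3 scaffold genes thus took the same order, with replicate 3 highest, replicate 1 between and replicate 2 lowest. Lox and Loxl1 took this order too, so it was not particular to the scaffold genes. The summed level of the fibroblast markers also took it, at 30140, 25450 and 31020 CPM in WT replicates 1, 2 and 3. The summed level of the chondrocyte markers was lowest in WT replicate 2 but highest in replicate 1, at 127 CPM against 487.1 and 290.2 CPM in WT replicates 1 and 3. Fn1 and Col5a2 made up most of the fibroblast sum and Col2a1 most of the chondrocyte sum. The part of either sum in the scaffold values was not tested.

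Fbln5 encodes fibulin-5, an adaptor that binds tropoelastin, lysyl oxidase-like 1 and integrins (ENSMUSG00000021186, chromosome 12, 101746565 to 101819055). It was at 460.2, 499.4 and 543.3 CPM in WT and at 570.6, 486.9 and 461.7 CPM in Nipbl+/- cultures. The genotypes overlapped over nearly their whole range. For Fbln5 the log2 fold change was 0.015 (95% interval -0.19 to 0.22, edgeR QL-adjusted p = 0.954), and this interval held 0. Its sign turned when a culture was left out, with -0.044 without WT replicate 1 and -0.082 without Nipbl+/- replicate 1.

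The log2 fold changes of the crosslinking enzymes had opposite signs, and neither passed the edgeR QL test. Lox encodes lysyl oxidase, a copper enzyme that crosslinks elastin and collagen (ENSMUSG00000024529, chromosome 18, 52516069 to 52529867). It was at 5761, 5429 and 6719 CPM in WT and at 5119, 4635 and 4288 CPM in Nipbl+/- cultures. All Nipbl+/- cultures lay below all WT cultures, so the genotypes did not overlap, and the direction was opposite to that of Eln. On the log2 scale the difference was -0.35 (standard error 0.09, 95% interval -0.56 to -0.15), which is 0.784 of the WT level. With an edgeR QL-adjusted p of 0.0920 Lox did not pass. It passed by edgeR's exact test (0.0359), by DESeq2 (0.0049) and by the edgeR QL test with no filter on low counts (0.0298). With a culture left out it passed the edgeR QL test in 0 of 6 fits, with adjusted p-values between 0.0558 and 0.236.

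Loxl1 encodes lysyl oxidase-like 1, an enzyme needed to maintain elastic fibres in adult tissue (ENSMUSG00000032334, chromosome 9, 58287723 to 58313212). Its level was 417.2, 390.7 and 463.1 CPM in WT and 476.6, 453.6 and 442.4 CPM in Nipbl+/- MEFs. WT replicate 3 lay within the Nipbl+/- range, and the other WT cultures lay below it. The log2 fold change was 0.11 (95% interval -0.043 to 0.27, edgeR QL-adjusted p = 0.450).

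All 7 genes passed the filter on low counts. At an edgeR QL-adjusted p under 0.05, 1 (Eln) was higher and 0 were lower, while of all 9061 tested genes 1.95% were called, 1.04% higher and 0.916% lower. Eln and Lox, 2 of the 7, had an unadjusted p under 0.05, as had 16.9% of all tested genes. The same pair was called by edgeR's exact test and by DESeq2, which called 4.76% and 4.96% of all tested genes. Eln upward and Lox downward were the genes without overlap between genotypes, which was found for 22.8% of all tested genes, 12% upward and 10.8% downward. Because Eln was chosen for its difference, nothing is read from these counts. The other 6 genes had log2 fold changes above 0 in 3 cases and below 0 in 3, with a median of -0.081, and the median of all tested genes was -0.006.

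Levels can be compared between genes only per length, for which the RPKM deposited by the authors was used. In WT, mean RPKM fell in the order Lox (1183), Fbn1 (226), Ltbp2 (132.3), Loxl1 (121), Fbln5 (81.9), Fbn2 (19.2) and Eln (13.5). Lox was apart from all others, while Fbn1 and Ltbp2, Ltbp2 and Loxl1, and Fbn2 and Eln overlapped between cultures. In Nipbl+/- MEFs the order of the upper 5 genes stayed the same, and Eln, at 60.0, 43.0 and 25.9 RPKM, stood above Fbn2, at 19.1, 13.9 and 19.1 RPKM. This exchange rests on the gene length. The files imply 2.67 kb for Eln, whereas its exons in GENCODE M21 add up to 8.1 kb. Per kilobase of those exons, an alternative chosen after seeing the data, the Nipbl+/- means were level, at 14.02 CPM for Eln and 14.05 CPM for Fbn2.

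**Figure D2:**
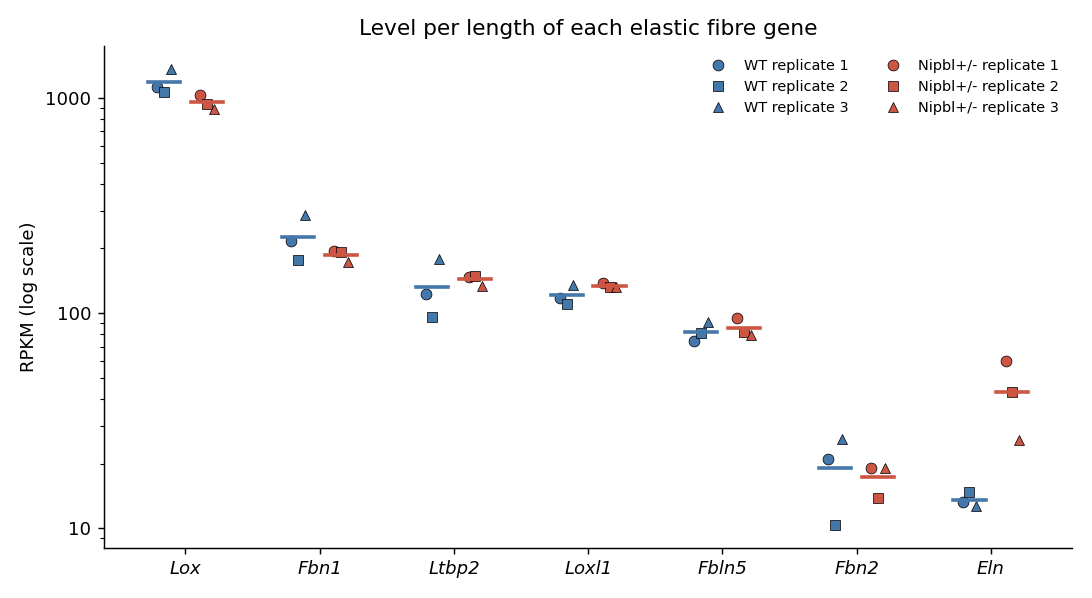
RPKM of each elastic fibre gene in each culture on a log axis, with genes in the order of their WT mean; points are cultures and short bars are means of 3 cultures. Lox is highest in both genotypes. Eln has the lowest mean in WT, at 12.7 to 14.7 RPKM, although Fbn2 is lower in WT replicate 2, at 10.4 RPKM. In the Nipbl+/- cultures Eln is above Fbn2, whereas per kilobase of M21 exons their means are level, at 14.02 and 14.05 CPM.

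The balance between elastin mRNA and that of its partners can be read within each culture, where the scaling by library size cancels but the gene lengths do not. For each RPKM unit of Eln there were 84.9, 72.1 and 108 units of Lox in WT and 17.2, 21.9 and 34.4 units in Nipbl+/- MEFs. For Fbn1 the same ratio was 16.4, 12 and 22.5 in WT and 3.25, 4.46 and 6.68 in Nipbl+/- MEFs. Fbln5 per Eln was 5.60, 5.48 and 7.21 in WT and 1.58, 1.89 and 3.05 in Nipbl+/- MEFs. All of these ratios were lower in each Nipbl+/- culture than in any WT culture. Eln is the denominator of each ratio, so these values are not independent of its difference. With the M21 exon lengths, chosen after seeing the data, the ratios were larger in every culture, for example 267.9, 227.6 and 340.8 for Lox in WT and 54.3, 69.0 and 108.4 in Nipbl+/- MEFs. The size of a ratio thus rests on the lengths taken for Eln and its partner. From its relative difference between genotypes these lengths cancel by arithmetic, so the change of lengths was no check of that difference. For Fbn2 per Eln the genotypes overlapped, with 1.59, 0.706 and 2.06 in WT and 0.319, 0.323 and 0.738 in Nipbl+/- MEFs.

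Further genes of the elastic fibre and its regulation were taken as lists of 101 names in all. Of the 99 names found in the files, 65 lie on the plus strand and are listed at 0, so nothing can be said of them, and they include genes central to the fibre such as Efemp2, Mfap2, Mfap5 and Emilin1. Of the 34 on the minus strand, 29 were tested, and by the edgeR QL test 1 was higher and 1 was lower, beside 1.04% and 0.916% of all tested genes. Their median log2 fold change was -0.094. As a background for the lists that follow, 16.9% of all tested genes had an unadjusted p-value under 0.05. The exact test called 4.76% and DESeq2 4.96% of all tested genes, and 22.8% had no overlap between genotypes.

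Both genes of these lists that passed belong to the list of microfibril and adaptor genes, of which 7 were tested, with a median log2 fold change of -0.15. Ltbp4, a latent TGF-β binding protein that also guides tropoelastin onto microfibrils, was at 10.03, 7.30 and 8.31 CPM in WT and at 12.9, 14.03 and 17.1 CPM in Nipbl+/- cultures. It rose by 0.78 on the log2 scale (standard error 0.15, edgeR QL-adjusted p = 0.0469). Emilin2, a glycoprotein related to the elastic fibre protein emilin-1, was at 32.7, 27.02 and 37.03 CPM in WT and at 22.2, 16.6 and 18.8 CPM in Nipbl+/- cultures. It fell by 0.75 on the log2 scale (standard error 0.14, edgeR QL-adjusted p = 0.0393). Neither gene overlapped between genotypes, as was the case for 22.8% of all tested genes. With a culture left out in turn, Ltbp4 passed in 0 of 6 fits, with adjusted p-values between 0.0679 and 0.119, and Emilin2 passed in 1 of 6, the fit without WT replicate 2, with values between 0.0204 and 0.146.

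In the list of crosslinking and secretion genes, 4 were tested and none passed in the edgeR QL test (1 at an unadjusted p-value under 0.05, 0 in the exact test and 1 in DESeq2). Bmp1, the protease that activates lysyl oxidase and trims procollagen, was at 453.1, 491.3 and 408.6 CPM in WT and at 455.4, 478.1 and 406.4 CPM in Nipbl+/- cultures. Tll1, a related protease, was at 321.3, 362.9 and 239.2 CPM in WT and at 373, 478.1 and 400.8 CPM in Nipbl+/- cultures, without overlap (log2 fold change 0.44, edgeR QL-adjusted p = 0.182, DESeq2-adjusted p = 0.0215). Atox1, a copper chaperone that serves the supply of copper to secreted enzymes, had a log2 fold change of -0.024.

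Among genes for the breakdown of elastin and its inhibitors, 3 were tested and none passed in the edgeR QL test (1 at an unadjusted p-value under 0.05, 0 in the exact test and 1 in DESeq2). Timp2, an inhibitor of matrix metalloproteinases, was at 1181, 1096 and 1276 CPM in WT and at 988.6, 952.9 and 1025 CPM in Nipbl+/- cultures, without overlap. Its log2 fold change was -0.26, with 0.0729 as the edgeR QL-adjusted p. Ctsl, a lysosomal protease, had a log2 fold change of -0.13, and Serpine2, an inhibitor of serine proteases, one of -0.17 (edgeR QL-adjusted p = 0.307 and 0.628). The elastases Mmp2, Mmp9 and Mmp12 and the cathepsins Ctsk and Ctss lie on the plus strand and were not tested.

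TGF-β is a known inducer of elastin mRNA, and 10 genes of its signalling and targets were tested. None passed in the edgeR QL test, 5 had an unadjusted p-value under 0.05, the exact test called 2 and DESeq2 called 3. Of all tested genes, 16.9% had such an unadjusted p-value, and the exact test and DESeq2 called 4.76% and 4.96%. For the 10 genes, log2 fold changes were below 0 for 8 and above 0 for 2, with a median of -0.19. The 2 above 0 were Tgfb2 (0.18), a ligand gene, and Smad4 (0.13), the shared signal transducer of the pathway, both named after their values were seen. The ligand gene Tgfb3 was at 328, 393.3 and 366.2 CPM in WT and at 299.9, 285.3 and 243.2 CPM in Nipbl+/- cultures, without overlap (log2 fold change -0.39, edgeR QL-adjusted p = 0.0719). Pmepa1, an induced inhibitor of the pathway, had a log2 fold change of -0.28 and the receptor gene Tgfbr2, named here after its value was seen, one of -0.38 (edgeR QL-adjusted p = 0.103 and 0.0940).

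Of factors known to act on elastin mRNA, 5 were tested and none passed in the edgeR QL test (0 at an unadjusted p-value under 0.05, 0 in the exact test and 0 in DESeq2). Sp3, a zinc finger factor that binds GC-rich promoters, Jun, a subunit of AP-1, and Srf, the serum response factor, had log2 fold changes of 0.024, 0.020 and 0.057. The 95% interval of Sp3 was -0.11 to 0.16 and that of Srf was -0.043 to 0.16.

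**Figure D3:**
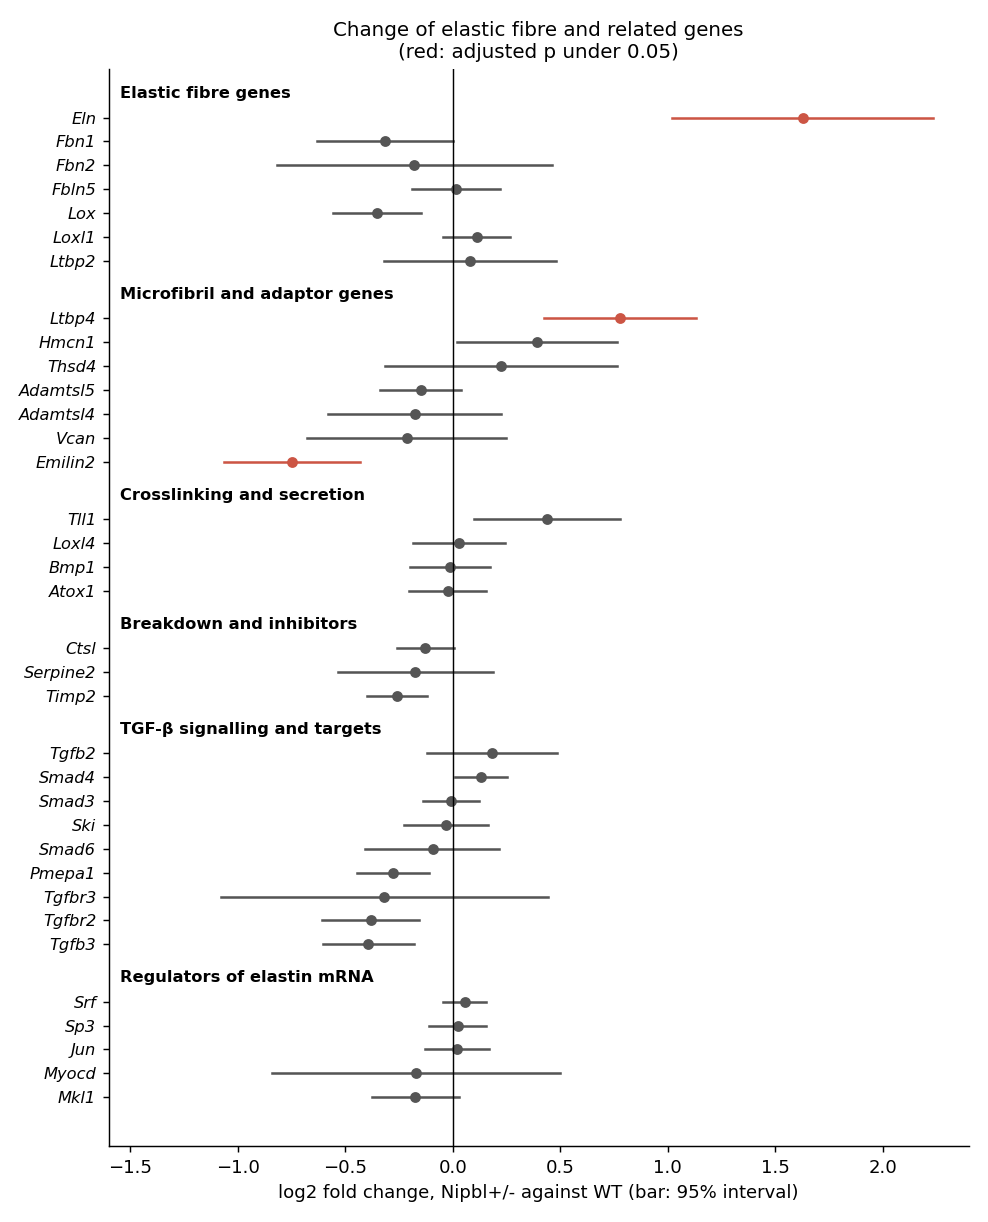
Log2 fold change of Nipbl+/- against WT for the 7 elastic fibre genes and for the tested genes of 5 further lists, apart from a TGF-β list gene not reported here, with 95% intervals from edgeR's quasi-likelihood fit; red marks an adjusted p under 0.05. Eln is at 1.63, only Ltbp4 (0.78) and Emilin2 (-0.75) of the other genes plotted are red, and without passing, the intervals of Lox, Timp2, Tgfb3, Tgfbr2 and Pmepa1 lie below 0 and those of Tll1, Hmcn1 and Smad4 above 0.

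Eln lies in a dense stretch of chromosome 5 whose counterpart is lost in Williams syndrome. Within 1000 kb of Eln the files list 56 other genes, of which 29 are on the minus strand and 20 were tested. None of the 20 passed in the edgeR QL test. Their log2 fold changes were above 0 for 15 of the 20, with a range of -0.26 to 1.21. Over all tested genes the median was -0.006. Lat2 and Ncf1, 2 of the 20, had an unadjusted p-value under 0.05, as had 16.9% of all tested genes. Both were also called by edgeR's exact test (adjusted p = 0.00306 and 0.0302) and DESeq2 (adjusted p = 0.0144 and 0.0141). Of all tested genes, the exact test called 4.76% and DESeq2 4.96%. Limk1, a kinase of the actin cytoskeleton and the nearest tested gene at 15.2 kb between the nearest ends of both genes, was at 28.2, 36.3 and 27.8 CPM in WT and at 28.9, 29.7 and 36.9 CPM in Nipbl+/- cultures (log2 fold change 0.047, 95% interval -0.25 to 0.35). Eif4h, a translation initiation factor at 64.4 kb, had a log2 fold change of 0.059. Lat2, at 88.8 kb, and Ncf1, at 474 kb, are known for their roles in leukocytes. Lat2, an adaptor of immune receptors, was at 2.68, 1.82 and 1.86 CPM in WT and at 4.42, 4.93 and 3.34 CPM in Nipbl+/- cultures (log2 fold change 1.0, edgeR QL-adjusted p = 0.0661). Ncf1, a subunit of the phagocyte oxidase, differed by 1.21 on the log2 scale (edgeR QL-adjusted p = 0.126). In the Nipbl+/- cultures Lat2 and Ncf1 were highest in replicate 2 and Eln in replicate 1, and a relation between them was not tested.

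**Figure D4:**
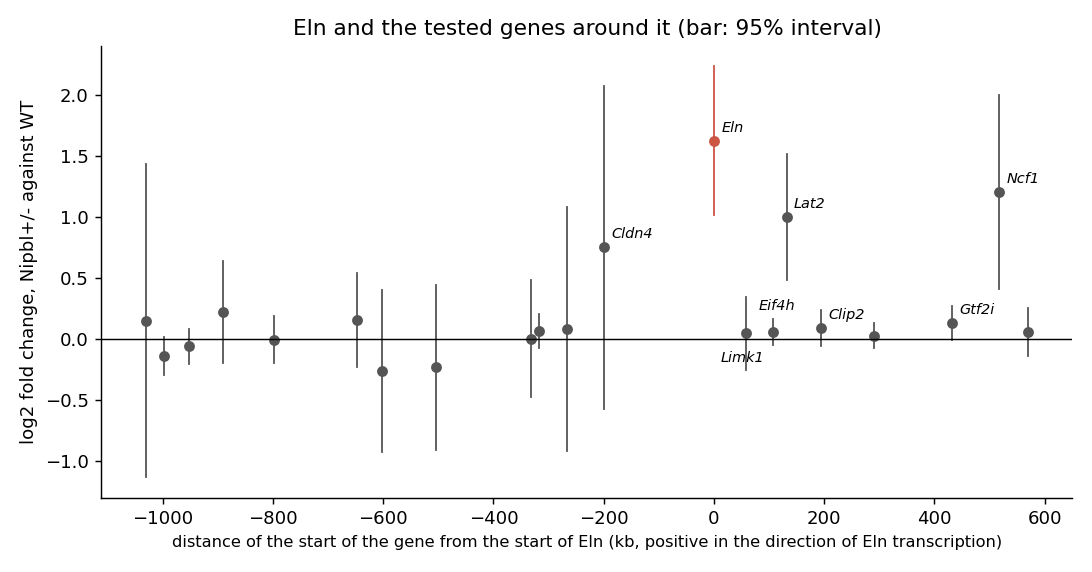
Log2 fold change of Nipbl+/- against WT, with 95% intervals, for Eln (red) and the 20 tested genes within 1000 kb of it, by the distance in kb of the start of each gene from the start of Eln. Eln stands at 1.63, its nearest tested neighbours Limk1 and Eif4h stand at 0.047 and 0.059, and Lat2 and Ncf1 stand at 1.0 and 1.21.

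Markers of other cell types were read beside Eln. In bulk RNA, a different number of cells of a type and a different amount of RNA per cell cannot be told apart. Smooth muscle cells are a main source of elastin, and 8 of 15 smooth muscle markers were tested. Log2 fold changes were above 0 for 6 and below 0 for 2, with 4 at an unadjusted p-value under 0.05, 1 called by the edgeR QL test, 1 by the exact test and 2 by DESeq2. Over all tested genes these shares were 16.9%, 1.95%, 4.76% and 4.96%, in the same order. Smtn, a cytoskeletal protein of smooth muscle, rose, from 64.1, 65.2 and 68.2 CPM in WT to 87.7, 83.4 and 76.0 CPM in Nipbl+/- cultures (log2 fold change 0.32, edgeR QL-adjusted p = 0.0422). The summed level of the list was between 8493 and 9752 CPM in WT and between 9334 and 10220 CPM in Nipbl+/- MEFs, with overlap. Acta2 and Tagln, its most counted genes, had log2 fold changes of 0.14 each (edgeR QL-adjusted p = 0.328 and 0.276). Myh11, a defining marker of mature smooth muscle, was at 76.8 to 88.8 CPM in WT and at 84.9 to 112.8 CPM in Nipbl+/- MEFs. Itga8, an integrin subunit, was at 142.5, 92.4 and 105.7 CPM in WT and at 92.5, 75.3 and 69.4 CPM in Nipbl+/- cultures (log2 fold change -0.52, edgeR QL-adjusted p = 0.150, DESeq2-adjusted p = 0.0098). Myocd, the coactivator of smooth muscle genes, had a log2 fold change of -0.17. These 3 genes were named after their values were seen.

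None of the macrophage markers passed, but their summed levels did not overlap between genotypes. All 10 that were tested had log2 fold changes above 0, with a median of 1.04 and 0 past the threshold in the edgeR QL test (9 at an unadjusted p-value under 0.05, 6 in the exact test and 5 in DESeq2). Over all tested genes, 16.9% had such an unadjusted p-value, and the exact test and DESeq2 called 4.76% and 4.96%. The summed level of the macrophage markers was 60.8 to 80.5 CPM in WT and 121.6, 194.8 and 97.6 CPM in Nipbl+/- replicates 1, 2 and 3. Lyz2, the most counted of these markers, was at 33.4 to 45.3 CPM in WT and at 52.9 to 111.8 CPM in Nipbl+/- MEFs. C1qa was at 4.81 to 6.99 CPM in WT and 7.59 to 15.2 CPM in Nipbl+/- MEFs. The part of these markers in the Eln difference was not tested. For endothelial, skeletal muscle and epithelial markers 4, 6 and 3 genes were tested, and none passed in the edgeR QL test (0, 0 and 2 at an unadjusted p-value under 0.05, and 0 in the exact test and in DESeq2 for each list). Their summed levels overlapped between genotypes, at 72.5 to 104.5 against 72.2 to 95.4 CPM, 247.5 to 351 against 304.2 to 350.5 CPM, and 14.3 to 34.5 against 13.0 to 22.4 CPM, with WT given first. Each of these sums came mostly from its most counted gene, Flt1, Acta1 and Pkp1 in that order, so the overlap is largely theirs. In WT these genes were at 52.94 to 90.75, 236.9 to 338.1 and 12.25 to 31.31 CPM. The 4 tested chondrocyte markers also had none past the threshold (0 at an unadjusted p-value under 0.05, in the exact test and in DESeq2). Their sums were 127 to 487.1 CPM in WT and 267.5 to 330.1 CPM in Nipbl+/- MEFs. Most of this came from Col2a1, at 119.5 to 471.6 CPM in WT.

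Genes whose level ran most like that of Eln were sought among 8262 tested genes with a mean of at least 1 CPM, by the Pearson r of log2 CPM over the 6 cultures. The closest were Asrgl1 (r = 0.995), Ctps (0.989), Dusp27 (0.988), Gm24339 (0.987) and Zfp458 (0.986). Of these, Dusp27 differed by 0.68 on the log2 scale (edgeR QL-adjusted p = 0.0373), at 19.01, 18.4 and 16.2 CPM in WT and 33.0, 29.2 and 23.9 CPM in Nipbl+/- MEFs. The other 4 had log2 fold changes between 0.091 and 0.32, below the 1.63 of Eln. Dusp27, Gm24339 and Zfp458 did not have the WT cultures in the same order as Eln. The genotypes did not overlap for any of the closest genes. Eln was chosen for its difference between genotypes, so a ranking by r favours genes that also differ. The p-value of Dusp27 is thus a description, as are these r values over 6 cultures of 2 genotypes. The same r was 0.60 for Loxl1, 0.34 for Fbln5, 0.22 for Ltbp2, -0.19 for Fbn2, -0.50 for Fbn1 and -0.64 for Lox.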

How the data were processed

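Ribo-depleted total RNA of 6 MEF cultures was sequenced. The authors aligned reads with TopHat2 2.0.10 to mm10 and Ensembl 72 and deposited raw counts per gene. The authors also deposited RPKM, the count per kilobase of gene and per 1e+06 reads. The counting tool is not given in the sources used here. Groups came from the sample titles.

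Counts were filtered with filterByExpr (minimum count 10), scaled by TMM and compared by quasi-likelihood (QL) F-tests in edgeR 4.0.16 (R 4.3.3), with Benjamini-Hochberg adjustment over all tested genes and a threshold of 0.05. The standard error of a log2 fold change was derived from it and its F value. Correlations used a prior count of 2. Exonic bases came from GENCODE M21 (mm10). Steps were tested on simulated data.

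Alternatives were other scalings, edgeR's exact test, DESeq2 1.42.0, other filters, a replicate block, and each culture left out. The order and the ratios by M21 exon length were added after seeing the data. Members and lists were chosen with earlier results of these data known. Named were all members, list genes past the threshold or else the 3 most counted, in marker lists those past it and the 2 most counted, genes near Eln and the 5 genes most like it. From the lists of other cell types and from genes near Eln, a selection is named. A gene of the TGF-β list that the rule names is counted with its list but not reported here. P-values set the difference between genotypes against the spread between these cultures. Spread between litters cannot be read from them.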

Additional observations from a re-analysis of the deposited data

How the results depend on the processing

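All alternatives kept the sign of the log2 fold change of Eln, and over the 8 that used all cultures it lay between 1.55 and 1.66, with an adjusted p-value under 0.05 in each. With a culture left out it lay between 1.30 and 1.90, and it passed in 2 of 6 fits: the adjusted p-value was 0.12 without WT replicate 1, 0.063 without WT replicate 3, 0.0842 without Nipbl+/- replicate 1 and 0.0924 without Nipbl+/- replicate 2. Lox passed with DESeq2 (-0.35), the exact test (-0.35) and no filter (-0.35), each of which then counted 1 of the 7 genes as lower. With a culture left out Lox lay between -0.42 and -0.26 and passed in 0 of 6 fits. It did not pass with the replicate block either (edgeR QL-adjusted p = 0.152). Signs turned without WT replicate 1 (Fbln5 -0.044), without Nipbl+/- replicate 1 (Fbln5 -0.082), without WT replicate 2 (Ltbp2 -0.094) and without WT replicate 3 (Fbn2 0.079), so the ranges were -0.082 to 0.077 for Fbln5, -0.094 to 0.33 for Ltbp2 and -0.47 to 0.079 for Fbn2. Fbn1 and Loxl1 kept their sign and did not pass under any alternative.

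In the 5 wider lists, 1 gene was higher and 1 lower. DESeq2 gave 2 higher and 5 lower, the exact test 3 lower, and no filter 4 lower. With a culture left out there were 0 higher and 0 to 3 lower, and 0 to 1 of the 7 genes was higher. Over all genes, 94 were higher and 83 lower. These counts were 142 higher with library size alone, 237 and 212 with DESeq2, 218 and 213 with the exact test, 173 and 152 with no filter, and 1 to 130 higher and 2 to 138 lower with a culture left out. The cause of these shifts was not tested.

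The replicate number as a block gave 34 higher and 52 lower genes, 0 higher in the wider lists (Ltbp4, edgeR QL-adjusted p = 0.0904) and 1.55 for Eln (edgeR QL-adjusted p = 0.0406). Cultures with the same number had deviations from their genotype mean that correlated at -0.062, -0.036 and -0.142 across genes, so the number is not shown to pair them. Eln and Fbn2 exchanged places in the Nipbl+/- order of levels per kilobase of M21 exons, Eln to place 7 and Fbn2 to place 6. The ratios to Eln also moved with these lengths, for Lox from 88.4 to 278.8 in WT and from 24.5 to 77.2 in Nipbl+/- MEFs (means). For Eln the number of cultures limits the precision rather than the depth, and for genes at a few CPM this was not assessed.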
